A study of Mus musculus with 24 samples.

Results

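Tumours from a second relapse of the KP mouse lung cancer model were compared with parental KP tumours across every gene of the deposited KP table. The comparison used 6 of the 24 libraries of the study, 3 labelled 2nd relapse KP and 3 labelled Parental KP. The table held 36040 genes, of which 11193 were high enough to test. KP cells come from a genetically engineered mouse model with p53 flox/flox alleles and a further engineered allele not reported here, and all groups share them. Cells were injected into mice, tumours were taken on day 15, and live CD45-negative cells were sorted. The series design describes the relapsed tumours as relapsed after immune checkpoint blockade (ICB), and the labels record no treatment of the sequenced tumours themselves. The labels give neither the checkpoint agent nor the way in which a first, second or late relapse was obtained, and the groups labelled 1st relapse KP and Late relapse KP (3 libraries each, the same alleles and harvest day) serve below only to show where the second relapse differed. A further group of 3 libraries, labelled Chronic IFNG KP (IFNG is interferon gamma) and also taken on day 15, is among the 15 KP libraries. It entered the principal component analysis, the fit behind every p-value and the figures of all KP groups, and its values are given below for some genes. The submitters call the libraries biological replicates, but no label ties them to separate animals, so p-values measure only the spread between these samples, which may be technical.

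KP tumours arise from lung epithelium in which the MAPK cascade is driven without the p53 brake. Cells of such tumours can lose lung identity and take on programmes of other endoderm-derived epithelia, or move along the axis between epithelial cells, held together by cadherin junctions and keratins on a laminin-rich basement membrane, and mesenchymal cells, which secrete fibrillar collagen and matricellular proteins. Interferon gamma (IFNG) from T cells acts on tumour cells through the receptor IFNGR, the kinases JAK1 and JAK2 and downstream factors such as IRF1, and it raises MHC class I, the peptide display that T cells read. Loss of that response or of class I display is a known route of escape from checkpoint blockade.

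The 6 libraries held an estimated 21.6 to 31.4 M fragments each, with 28389 to 30700 genes detected. In a principal component analysis of all 15 KP libraries the first component, holding 49.0% of the variance, placed the 2nd relapse libraries at 35.3 to 37.2, the parental libraries at -21.2 to -18.5, and every other KP library between them, at -15.5 to 6.9. Values below are normalised counts calculated back from the deposited values, and log2 differences are 2nd relapse minus parental on the deposited scale, which is compressed for low genes. The labelled cell type was checked against its markers. Keratins, Cdh1 and Epcam were present in every library, and Ptprc (CD45) was at 43.5, 219.4 and 50.7 in the parental libraries and at 37.2, 35.3 and 12.7 in the 2nd relapse libraries. Neutrophil, T and NK cell and B cell markers were low, with no member of the 3 lists high enough to test. Cd53, the only leukocyte marker high enough to test, was at 1723, 2108 and 1989 against 500.0, 590.2 and 588.3 (log2 difference -1.23, limma adjusted p 4.03e-07). The summed leukocyte list was at 82.9 to 115 counts scaled to the library total (CPM) against 25.1 to 28.8. Cd53 made up most of that sum, so the sum adds little to Cd53 itself. All 3 parental libraries were above all 3 2nd relapse libraries in Ptprc, Cd53 and the sum, with Parental KP replicate 2 highest. That library also had the highest T and NK cell sum (7.49 CPM) and B cell sum (8.65 CPM) of the 6. Of 3 tested MHC class II markers 1 rose, 1 fell and 1 was not called, with a median log2 difference of -0.08. H2-Aa, 1 of the 8 genes on that list, was at 42.1, 201.6 and 97.2 in the parental libraries against 7.9, 15.1 and 6.6. The part of leukocyte RNA in the results was not tested.

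Most genes differed between the second relapse and the parental tumours. At a limma adjusted p below 0.05, 7367 of the 11193 genes tested were called (65.8%), 4117 higher (36.8%) and 3250 lower (29%). A difference of at least 1 log2 unit was reached by 476 of the higher genes (4.25% of all tested) and 277 of the lower genes (2.47%), and the median over all tested genes was 0.03. With so large a share of calls, the counts for gene groups below are read against 36.8% and 29%, and their medians against 0.03.

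The 3 highest log2 differences were in Lgals2, Cdh17 and Tm4sf4. Lgals2, a galactose-binding lectin of gut epithelium (chr15:78850860-78855529), stood at 38.3, 43.4 and 37.7 in the parental libraries and at 21701, 22830 and 26705 in the 2nd relapse libraries. This was a 597-fold rise, with a log2 difference of 5.86 (SE 0.12, limma adjusted p 1.71e-13). Cdh17, the liver-intestine cadherin (chr4:11758147-11817895), went from 590.6, 435.7 and 397.3 to 15284, 16522 and 17391, a 34.6-fold rise. Tm4sf4, a membrane protein gene of liver and intestine (chr3:57425314-57441677), went from 26.3, 22.6 and 17.1 to 6818, 5859 and 5214. The groups did not overlap in these 3 genes, which was part of the rule that named the highest genes.

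The other genes among the 15 highest were of several kinds, among them the lactate exporter Slc16a3, the laminin genes Lama3 and Lamb3 and the cytokine antagonist Il1rn, described below. The brush-border cadherin Cdhr2 was at 7.3, 3.5 and 2.2 in the parental libraries and at 2334, 2990 and 2925 in the second relapse, and the lipoprotein gene Apoc2 was at 1.8, 0.0 and 1.7 and then at 1924, 2473 and 2649. For both the parental level was too low to carry a fold. The hepatocyte growth factor activator Hgfac rose 44.0-fold (109 ± 45.4 to 4793 ± 378, SD, n = 3), the interleukin 5 receptor gene Il5ra 29.5-fold (353 ± 172 to 10393 ± 869), the zinc importer Slc39a4 30.7-fold (145 ± 55.9 to 4451 ± 273) and the retinaldehyde dehydrogenase Aldh1a3 12.2-fold (1670 ± 111 to 20336 ± 1511). The proliferin genes Prl2c2 (39.7-fold) and Prl2c3 (13.2-fold) are almost the same in sequence, and how reads were shared out between them cannot be known.

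The 3 lowest log2 differences were in Sparc, Tnc and Fgfr1. Sparc, which encodes the collagen-binding matricellular protein osteonectin (chr11:55394500-55423183), fell from 17040, 18180 and 17620 in the parental libraries to 344.4, 403.8 and 418.7, a 45.3-fold drop (log2 difference -4.39, SE 0.11, limma adjusted p 1.19e-12). Tnc, the matrix glycoprotein tenascin C (chr4:63959785-64047015), fell from 13814, 16754 and 13507 to 318.5, 427.9 and 482.3, a 35.9-fold drop. Thbs1 (thrombospondin 1) fell by 3.10 on the log2 scale, Tgfbi, a matrix protein induced by TGFB, 10.6-fold, and Olfml2b 23.4-fold. Outside the matrix, the neuronal microtubule protein gene Map2 fell 36.1-fold, the phosphodiesterase gene Pde3b fell from 1841 ± 126 to 11.4 ± 12.8, and the fibroblast growth factor receptor Fgfr1 fell 92.3-fold. Every 2nd relapse library lay below every parental library in each of these 8 genes, but non-overlap was part of the rule that named the lowest genes.

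**Figure D1:**
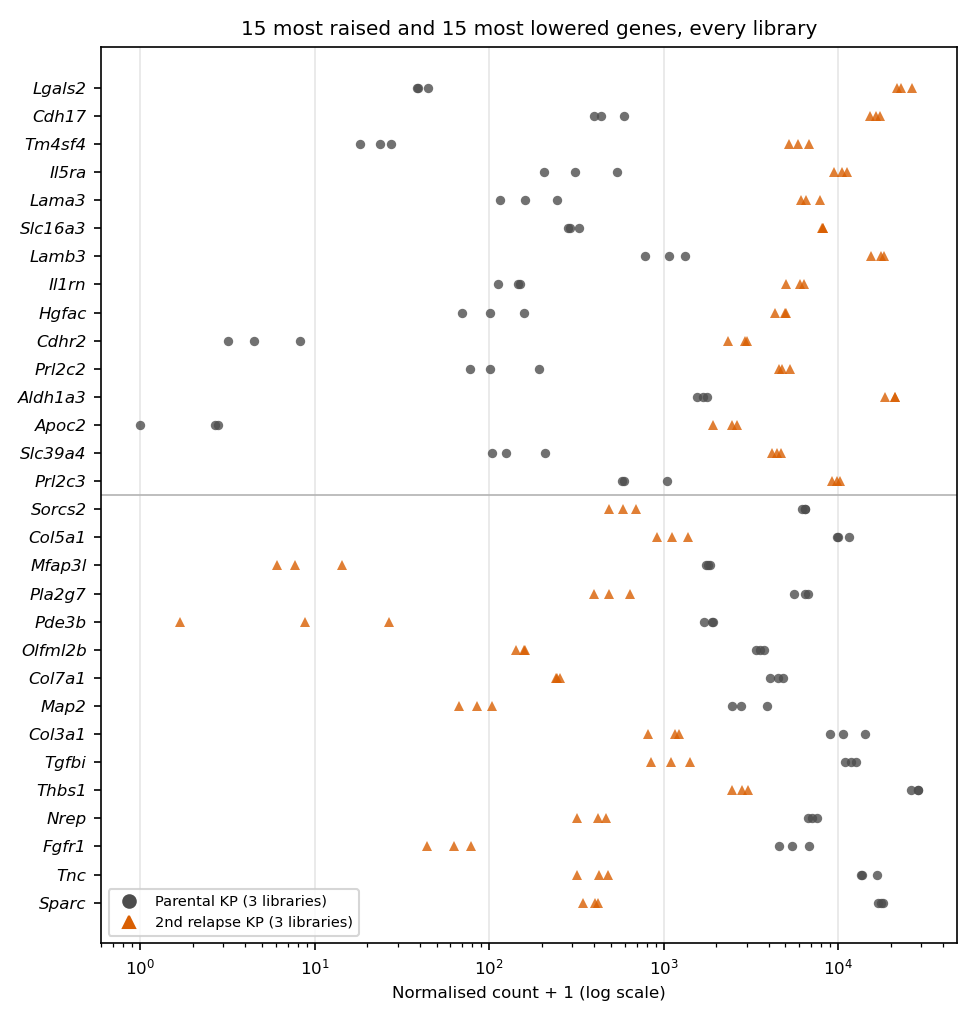
Normalised count + 1 on a log axis in each library for the 15 genes with the highest and the 15 with the lowest log2 difference, with dark grey circles for the 3 parental libraries and orange triangles for the 3 2nd relapse libraries. The symbols of the groups do not overlap in any gene shown, since non-overlap was part of the rule for naming them, and replicates lie close together, for example 344.4 to 418.7 for Sparc in the second relapse.

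Genes of epithelial junctions and keratins were higher as a group. Of 27 tested members 22 rose, 11 of them by at least 1 log2 unit, and 1 fell, with a median of 0.91. Cdh1, the epithelial cadherin, was at 4494, 3288 and 3631 in the parental libraries and at 15586, 17036 and 16748 in the second relapse, a 4.33-fold rise (log2 difference 1.97, SE 0.11, limma adjusted p 1.12e-09). The desmosome plaque gene Dsp rose 7.94-fold, the tight-junction channel Cldn2 8.29-fold, and the keratins Krt23, Krt7 and Krt19 rose 16.1-fold, 5.04-fold and 3.62-fold. The basal keratin Krt14 rose 9.04-fold, from 89.9 ± 22.6 to 813 ± 126, while its partner Krt5 stayed between 2.9 and 16.2 in all 6 libraries. Both belong to a marker list of skin, muscle and fat, whose summed level was 6.52 to 7.61 CPM in the parental libraries, 31.4 to 40.2 in the second relapse and 7.49 to 13.6 in the other KP libraries. Krt14 was the only member of that list high enough to test, and the part of such tissue in the keratin values was not tested. Epcam, a surface marker of epithelial cells, was at 635.1, 725.4 and 914.0 and then at 1473, 1650 and 1299, a rise of 1.94-fold. The single fall was not called without 2nd relapse KP replicate 3, Parental KP replicate 2 or Parental KP replicate 3, which left 0 members lower. Without members on chromosomes 15 and X (below), the median was 0.86.

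Endoderm lineage factors rose as well, with 13 of 21 tested members higher, 5 lower and a median of 0.75. Hnf4a, the master regulator of liver and gut epithelium (chr2:163506808-163572910), was at 580.0, 248.9 and 324.9 in the parental libraries and at 4062, 4512 and 4550 in the second relapse (11.4-fold, log2 difference 2.54, SE 0.15, limma adjusted p 2.06e-09). The pioneer factor Foxa2 rose 5.42-fold, the epithelial ETS factors Elf3 and Ehf 7.63-fold and 5.31-fold, and the differentiation inhibitor Id2 6.66-fold. Nkx2-1, which specifies lung, was near 0 in both groups at 8.0, 5.4 and 3.0 against 5.0, 3.2 and 9.4.

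Gastric and mucosal genes split. Of 21 tested members 9 rose and 3 fell, with a median of 0.30 (0.17 without chromosomes 15 and X). Ctse, the gastric protease cathepsin E, rose 12.8-fold (707 ± 234 to 9047 ± 207), Anxa10, an annexin of stomach epithelium, 8.48-fold and the brush-border protein villin, Vil1, 12.5-fold. The stomach claudin Cldn18 went the other way, from 887.8, 1017 and 618.8 to 152.9, 169.8 and 111.7, a 5.81-fold fall. It was lower still in the 1st and late relapse, averaging 29.5 and 15.3 against 145 in the second (limma adjusted p 4.54e-04 and 8.06e-05). Tff2, a mucus-associated trefoil peptide, was at 520.5, 175.4 and 176.1 in the parental libraries and at 0.0, 9.5 and 6.0 in the second relapse. Among 10 tested alveolar and airway genes 3 rose and 5 fell, with a median of -0.27. The mucin Muc5b rose 17.6-fold, while caveolin, Cav1, fell 2.52-fold and the water channel Aqp5 4.15-fold.

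The basement membrane list moved in opposite directions by subunit. Lama3 and Lamb3 encode an alpha and a beta chain of the laminins that anchor epithelial cells through hemidesmosomes. Lama3 was at 245.6, 115.0 and 160.7 in the parental libraries and at 6547, 7844 and 6133 in the second relapse, a 39.4-fold rise. Lamb3 went from 1073, 781.0 and 1326 to 15541, 18408 and 17583, a 16.2-fold rise. The limma adjusted p-values were 4.30e-11 and 2.77e-11, and non-overlap of the groups was part of the rule that picked both genes. Of the 20 tested members of the list 5 rose and 14 fell, with a median of -0.62. The anchoring fibril collagen Col7a1 fell 18.1-fold (4473 ± 393 to 248 ± 6.75), and the collagen IV chains Col4a5 and Col4a3 fell as well, from 4911 ± 78.5 to 889 ± 53.2 and from 419 ± 62.1 to 12.7 ± 15.1.

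Fibrillar collagens were lower. Of 18 tested members 14 fell, 12 of them by at least 1 log2 unit, and 2 rose, with a median of -1.27. Col3a1 was at 9011, 10654 and 14315 in the parental libraries and at 808.9, 1220 and 1161 in the second relapse, a 10.7-fold fall. Col5a1, which nucleates collagen fibrils, fell 9.19-fold, Col5a3 14.4-fold and Col1a1 7.65-fold. The proteoglycan decorin, Dcn, fell 16.7-fold. Without 2nd relapse KP replicate 1, 1 of the 2 rises in this list was no longer called, and under quantile normalisation neither was.

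Markers of fibroblasts were lower as well, on a list that shares genes with the collagen list. Of 13 tested fibroblast markers 11 fell and 1 rose, with a median of -0.65, and their summed level was 638 to 1030 CPM in the parental libraries against 68.2 to 104 in the second relapse. Pdgfra, a defining fibroblast receptor, was at 138.3, 148.6 and 233.6 against 15.4, 46.3 and 57.5, and Pdpn at 37.9, 48.0 and 44.4 against 0.9, 2.9 and 4.5. Col1a1, Col1a2, Col3a1 and Dcn are themselves members of that list. These collagens made up most of the summed level in both groups, so the sum largely restates the collagen result. Pdgfra and Pdpn were picked from the list after their values were seen. The part of fibroblast RNA in the collagen result was not tested, and fewer cells of a type and less RNA per cell cannot be told apart in these bulk samples. The summed fibroblast level was higher still in the 1st relapse libraries, at 2930 to 4100, where Sparc averaged 16478, and it was 564 to 2550 in the late relapse libraries, where Sparc averaged 14872.

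Genes of the epithelial-mesenchymal transition were mostly lower. Of 28 tested members 18 fell and 4 rose, with a median of -0.56. Beside Sparc, Tnc, Thbs1 and Tgfbi, the calcium-binding protein gene S100a4 fell 4.99-fold. The secreted phosphoprotein osteopontin, Spp1, rose 3.73-fold, from 48488, 51031 and 44219 to 189182, 189711 and 157547. Vim, the mesenchymal intermediate filament vimentin, differed little, with 84431, 79120 and 80590 against 70057, 72037 and 74915 (log2 difference -0.17, limma adjusted p 0.0192). That call was lost without 2nd relapse KP replicate 1 (adjusted p 0.069) or Parental KP replicate 1 (adjusted p 0.0791). Matrix proteases and their inhibitors gave 7 higher and 14 lower of 24, median -0.43, with the metalloproteases Mmp19 down 26.2-fold and Adam19 down 28.1-fold, the inhibitor Timp1 down 3.67-fold and the plasminogen activator Plat up 2.37-fold.

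**Figure D2:**
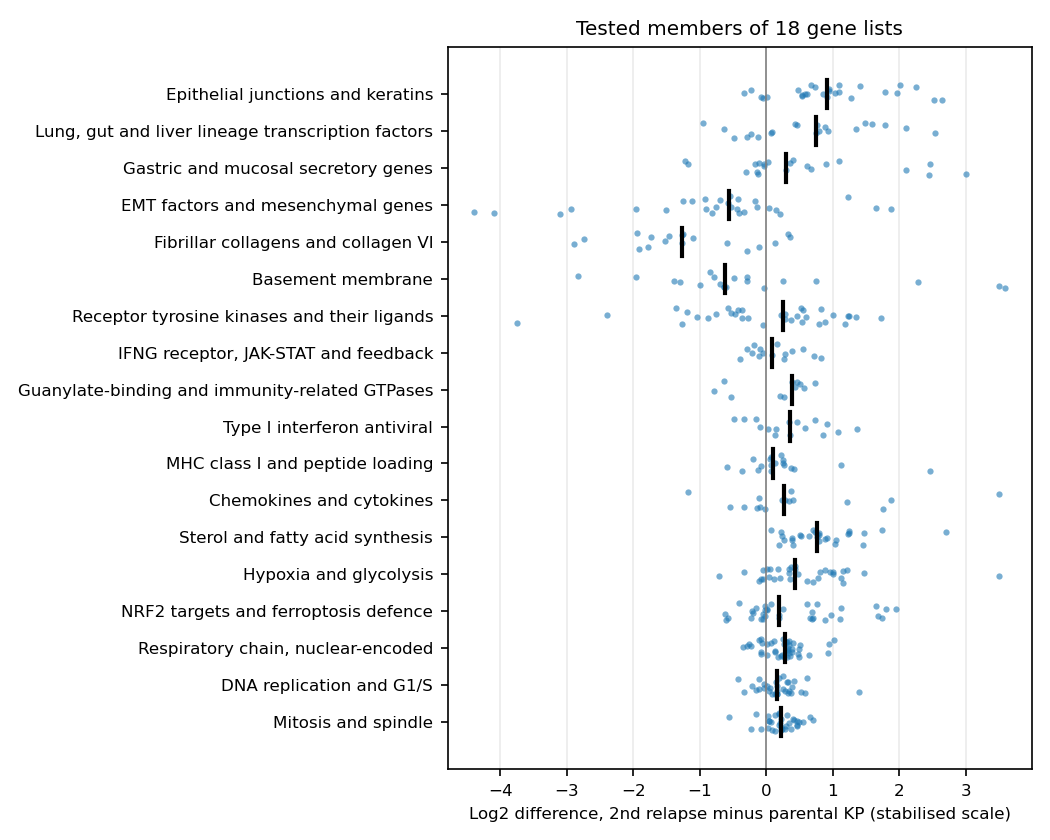
Log2 difference of each tested member (blue points) of 18 gene lists, 2nd relapse minus parental, with a black bar at the list's median and a grey line at 0. The medians run from -1.27 for fibrillar collagens to 0.91 for epithelial junctions and keratins, and Lamb3 and Lama3 are the points at 3.5 and 3.6 in the basement membrane row.

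Receptor tyrosine kinases changed in both directions. Of 34 tested receptors and ligands 18 rose and 15 fell, with a median of 0.25. Fgfr1 (chr8:25513654-25575718) was at 5483, 4575 and 6807 in the parental libraries and at 77.7, 42.9 and 62.0 in the second relapse (log2 difference -3.75, SE 0.11, limma adjusted p 2.50e-12). The kinases of the TAM family fell, Axl from 20455, 22416 and 20175 to 3642, 3382 and 3553 and Mertk from 507.3, 597.2 and 508.3 to 29.2, 39.5 and 30.3. Mst1r, the epithelial receptor RON for macrophage-stimulating protein, rose 15.5-fold, from 82.2, 59.7 and 54.8 to 898.5, 1070 and 1078. The ligand Fgf1 rose 9.25-fold. Fgfr2 was uneven among the parental libraries, at 51.9, 751.6 and 670.6, against 25.5, 14.4 and 7.7 in the second relapse, and its adjusted p was 0.00914.

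MAPK pathway genes moved less. Of 29 tested members 12 rose and 7 fell, with a median of 0.09. The feedback inhibitors Spry1 and Spry4 rose 9.90-fold and 2.27-fold, while the inhibitor Spred1 fell 1.70-fold and the ETS factor Etv1 2.89-fold. Trp53, floxed in this model, was low in both groups at 161.0, 146.7 and 192.8 against 116.2, 115.8 and 85.4. Genes listed as p53 targets gave 12 higher and 7 lower of 24, median 0.10 (0.01 without chromosomes 15 and X), led by the apoptosis gene Pmaip1, which rose 6.42-fold, and the cell-cycle inhibitor Cdkn1a, which rose 3.08-fold.

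In the TGFB and BMP list 11 of 26 tested members rose and 11 fell, with a median of -0.09. Bmp7, a BMP ligand, went from 140.5, 131.9 and 139.3 to 1752, 2008 and 2291, a 14.7-fold rise. The protease Bmp1, which processes procollagen, fell 5.34-fold, and the co-receptor Tgfbr3 fell 20.5-fold. Wnt genes gave 4 higher and 7 lower of 15, median -0.20. The non-canonical ligand Wnt5a fell 9.09-fold (3389 ± 171 to 373 ± 51.6) and the antagonist Dkk2 4.88-fold, while Rnf43, a ligase that removes Wnt receptors, rose 12.4-fold.

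The second relapse also differed from the other relapsed KP groups, and these comparisons share the 2nd relapse libraries. Against 1st relapse KP, 6967 genes were called (62.2%), 3835 higher (34.3%) and 3132 lower (28%), and 243 and 340 of them by at least 1 log2 unit (2.17% and 3.04%). Against late relapse KP, 6148 genes were called (54.9%), 3329 higher (29.7%) and 2819 lower (25.2%), and 141 and 201 by at least 1 log2 unit (1.26% and 1.8%). Some of the losses named above were also called against both groups. For Sparc the log2 difference was -4.29 from the 1st relapse and -4.14 from the late relapse, for Tnc -3.47 and -4.25, for Fgfr1 -3.37 and -2.75, and for Axl -1.76 and -1.96. Lamb3 was higher by 2.26 and 2.68, and Il1rn by 2.25 and 2.78. Every difference named in these 2 sentences was called, and the largest limma adjusted p among them was 3.27e-09, for Lamb3 against the 1st relapse. Fgfr2 was lower than in the 1st relapse (-0.92, adjusted p 0.0474) but did not pass the test against the late relapse (-0.04, adjusted p 0.941).

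For some gains the other relapsed groups stood near the second relapse. Hnf4a averaged 3167 in the 1st relapse and 2984 in the late relapse against 4375 in the second, and the second relapse was higher by only 0.41 and 0.48 on the log2 scale (limma adjusted p 0.0275 and 0.0133). Slc16a3 averaged 7949 in the late relapse and 8176 in the second, which did not pass the test (log2 difference 0.04, adjusted p 0.785). For Cdhr2 and Apoc2 the late relapse, at 3192 and 2272, also did not differ from the second by the test (adjusted p 0.183 and 0.825), while the 1st relapse was lower, at 285 and 199. Epcam was the reverse, higher in the 1st relapse (7367) and the late relapse (2598) than in the second (1474), with log2 differences of -1.98 and -0.64. Tff2 averaged 4405 in the 1st relapse and 1510 in the late relapse but 5.16 in the second. Elf3, Cldn2 and Ctse averaged 2224, 8042 and 7781 in the 1st relapse against 1880, 7702 and 9047 in the second. None of these differences passed the test (limma adjusted p 0.188, 0.8 and 0.348). Ehf was higher in the 1st relapse, at 3118 against 2097 (limma adjusted p 0.0045). Each of these genes was higher in the second than in the late relapse, by 0.66 to 1.07 on the log2 scale. Chronic IFNG KP, whose label names no relapse, averaged 1630, 4683, 4722 and 2047 for Elf3, Cldn2, Ctse and Ehf. The parental means were 247, 929, 707 and 395. Hnf4a and Epcam averaged 2058 and 4336 in the chronic IFNG group. Cdhr2 and Apoc2 were low there, at 10.9, 7.5 and 20.6 and at 6.3, 4.6 and 12.2. Differences from the chronic IFNG group were not tested.

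**Figure D3:**
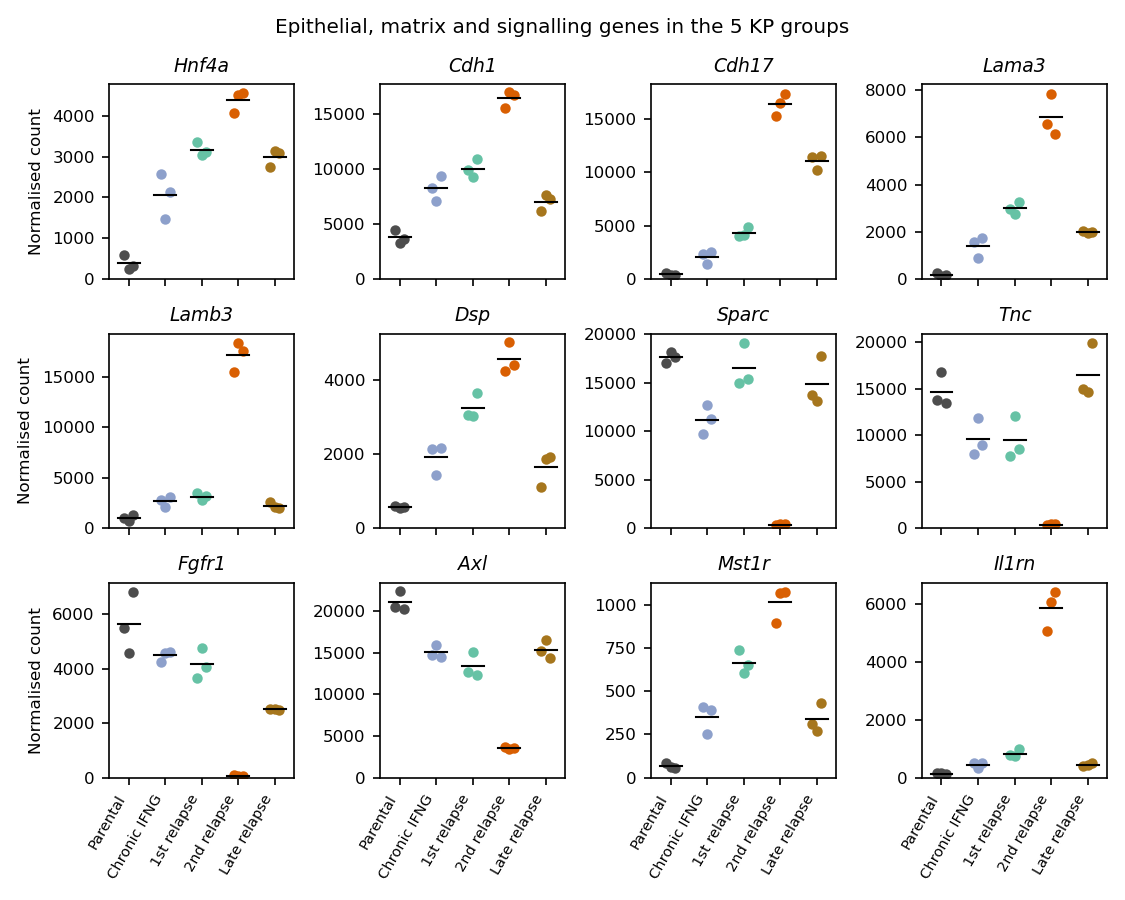
Normalised counts of 12 genes in each of the 15 KP libraries by group, with black bars at the group means (n = 3). Sparc, Tnc, Fgfr1 and Axl are low in the 3 2nd relapse libraries alone, with Sparc at 344.4 to 418.7 there, and Lamb3 and Il1rn are highest there, while Hnf4a and Cdh17 also stand above the parental level in the other groups.

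The receptor and kinase genes that carry the IFNG signal were expressed in both groups. Ifngr1 was at 1790, 1818 and 1704 in the parental libraries and at 2519, 2324 and 2570 in the second relapse, a rise of 1.40-fold. Ifngr2 rose 1.78-fold, and Jak2, the kinase bound to it, rose 1.93-fold, from 2741, 2751 and 2974 to 5047, 5599 and 5707 (log2 difference 0.83, SE 0.05, limma adjusted p 3.29e-09). Jak1 did not pass the test, with 3019, 2737 and 2860 against 3199, 3089 and 3008. The target factor Irf1 fell 1.32-fold, from 1084, 1304 and 1240 to 1044, 916.7 and 783.7. In the whole list of receptors, JAK-STAT members and feedback inhibitors 6 of 15 rose and 4 fell, median 0.09, and the 4 became 2 without 2nd relapse KP replicate 1 or without Parental KP replicate 3.

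Antiviral interferon genes were higher in part. Of 16 tested members of the type I interferon list 10 rose and 2 fell, with a median of 0.36. Oasl1, an OAS-like inhibitor of Irf7 translation, was at 209.4, 242.4 and 198.9 and then at 1235, 1220 and 1158, a 5.55-fold rise. Ifit3, a partner of the RNA-binding protein IFIT1, was at 13.1, 16.7 and 18.6 in the parental libraries and at 501.7, 283.2 and 176.9 in the second relapse, so the groups were well apart although the second relapse libraries spread widely. The factor Irf7 rose 6.72-fold and the virion tether Bst2 4.62-fold. Guanylate-binding and immunity-related GTPases gave 6 higher and 2 lower of 11, median 0.39, with Ifi47 up 4.36-fold and Irgm1 up 1.99-fold. The fall of the GTPase Iigp1, at 38.5, 391.4 and 326.9 against 12.7, 88.5 and 3.3, had overlapping groups and an adjusted p of 0.0279, which became 0.0762, 0.101, 0.123 and 0.103 without 2nd relapse KP replicates 1 and 3 and Parental KP replicates 2 and 3, leaving 1 member lower. Among the other IFNG response genes 15 of 24 rose and 4 fell, median 0.31, led by the apolipoprotein L genes Apol9b (61.9 ± 6.78 to 843 ± 84.6) and Apol9a, near-identical copies whose reads cannot be split with certainty, and the complement factor Cfb (5.06-fold). Complement genes gave 3 higher and 6 lower of 11, median -0.56 (-0.34 without chromosomes 15 and X), and nucleic acid sensors 3 higher and 3 lower of 10, median -0.09, with 5 lower under median centring.

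Promoter sequences of 4 of these genes are shown because they hold a full match to the interferon-stimulated response element, the site read by STAT and IRF factors, while the genes differed in direction: Ifit3, Bst2 and Apol9b rose and B2m fell. The motif searched was GAAAC and GAAA with any base between them, on both strands, in the 250 bases before and 50 bases after each start in RefSeq (GRCm38.p6), and 225 of 32851 promoters of that length held it (0.68%). Of the tested members present in that table it was found in 4 of 15 type I interferon genes (Bst2, Ifit3, Ifitm3 and Stat2, of which Stat2 was not called, with an adjusted p of 0.212), 3 of 15 other IFNG response genes and 1 of 16 MHC class I genes. Capitals mark the match, and each 100-base stretch is written 5′ to 3′ on the strand of its gene.
Ifit3 (chr19:34583362-34583461, plus strand): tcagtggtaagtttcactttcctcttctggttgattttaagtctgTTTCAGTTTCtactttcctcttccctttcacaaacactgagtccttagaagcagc
Bst2 (chr8:71537542-71537641, minus strand): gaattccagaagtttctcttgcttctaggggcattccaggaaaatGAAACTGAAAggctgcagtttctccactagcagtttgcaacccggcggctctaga
Apol9b (chr15:77728990-77729089, plus strand): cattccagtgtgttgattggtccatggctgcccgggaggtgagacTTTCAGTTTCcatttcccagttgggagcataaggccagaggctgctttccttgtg
B2m (chr2:122147503-122147602, plus strand): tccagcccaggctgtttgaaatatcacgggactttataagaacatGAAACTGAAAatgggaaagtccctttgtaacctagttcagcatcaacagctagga

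MHC class I genes showed a split between heavy and light chain. The heavy chain H2-K1 (chr17:33996017-34000347) was at 563.3, 962.3 and 951.2 in the parental libraries and at 6514, 8464 and 5657 in the second relapse, an 8.33-fold rise (log2 difference 2.47, SE 0.17, limma adjusted p 1.27e-08). H2-D1 went from 1944, 2491 and 2186 to 5508, 6148 and 4789, a rise of 2.48-fold. B2m, the light chain that every class I molecule needs (chr2:122147686-122153083), fell 1.57-fold, from 3702, 4135 and 4005 to 2487, 3325 and 1741 (log2 difference -0.59, SE 0.14, adjusted p 0.0024). No second relapse library reached the lowest parental library for B2m, and none came down to the highest for H2-K1. Class I genes are similar in sequence, so how reads were divided among them cannot be known.

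The class I presentation list as a whole moved little by its median. Of its 18 tested members, which include B2m, 8 rose and 2 fell, with a median of 0.11. Only 5 were called higher under quantile normalisation, median centring or no filter. The same held without 2nd relapse KP replicate 1, 2nd relapse KP replicate 2 or Parental KP replicate 1. The peptide transporter Tap1 was at 25.4, 68.7 and 47.9 against 143.6, 228.2 and 51.4, with overlapping groups and an adjusted p of 0.0394. That p became 0.096, 0.198, 0.132 and 0.0727 without 2nd relapse KP replicates 1 and 2 and Parental KP replicates 1 and 3, and 0.0567 with the replicate block. The class I transactivator Nlrc5 was too low to test, at 22.2, 100.3 and 45.4 against 41.5, 86.5 and 42.9.

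Of checkpoint ligands and adenosine ectoenzymes 8 of 15 tested members rose and 5 fell, with a median of 0.34. Cd274, which encodes PD-L1, was below the level set for testing, at 31.9, 38.6 and 34.3 in the parental libraries and 66.9, 65.3 and 64.9 in the second relapse, 1.88-fold by the means. Lgals9, the ligand galectin 9, rose 8.91-fold (126 ± 30.4 to 1120 ± 83.1), and Nt5e, the ectoenzyme CD73 that makes adenosine, rose 3.27-fold. Cd276, the ligand B7-H3, fell 2.37-fold, from 1792, 1817 and 1749 to 714.2, 778.9 and 765.2.

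Among chemokines and cytokines 8 of 16 tested genes rose and 3 fell, with a median of 0.27, and NF-kB genes gave 13 higher and 6 lower of 23, median 0.14. Il1rn, the interleukin 1 receptor antagonist (chr2:24336853-24351494), was at 149.2, 146.2 and 111.5 in the parental libraries and at 5043, 6068 and 6403 in the second relapse, a 43.1-fold rise. The alarmin Il33 rose 4.03-fold and the membrane-bound chemokine Cx3cl1 3.63-fold. Csf1, the macrophage growth factor, fell 9.16-fold, from 484.6, 626.9 and 435.2 to 57.1, 50.0 and 61.7, and the monocyte chemokine Ccl2 was at 97.5 ± 5.72 against 10.9 ± 6.10. The T cell chemokine Cxcl10 was too low to test, at 8.5, 17.6 and 4.1 against 92.1, 66.7 and 23. Of 3 tested macrophage markers 2 rose and 1 fell. The mannose receptor gene Mrc1 and the lipopolysaccharide co-receptor gene Cd14 rose 4.22-fold and 4.43-fold, and the lysozyme gene Lyz2 fell, from 164.5, 233.1 and 86.7 to 36.1, 38.5 and 18.7 (log2 difference -0.57, limma adjusted p 0.00508). Adgre1, which defines macrophages, was at 3.8, 7.3 and 8.8 in the parental libraries and at 1.8, 0.9 and 1.1 in the second relapse, so the summed macrophage list (317 to 353 CPM against 87.4 to 118) rested on genes other than that one.

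**Figure D4:**
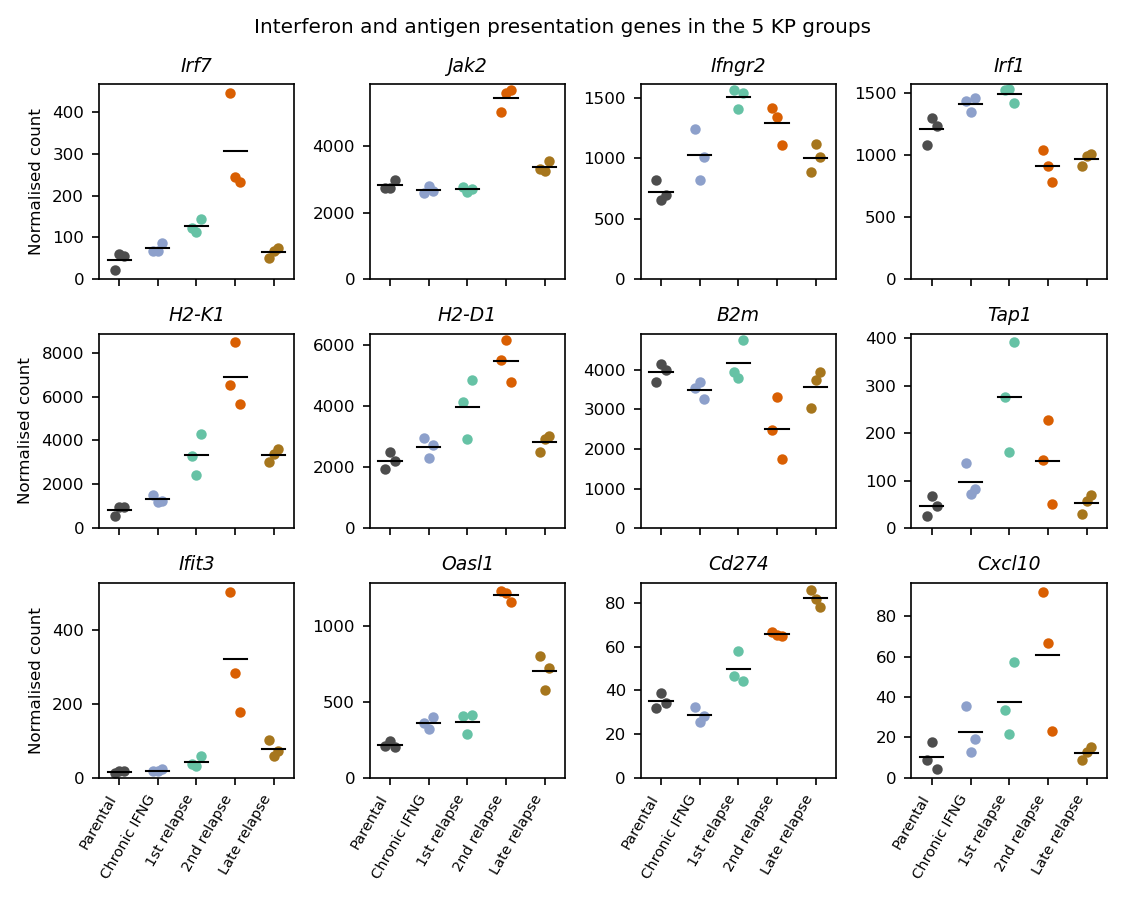
Normalised counts of 12 interferon, antigen presentation and checkpoint genes in each of the 15 KP libraries by group, with black bars at the group means (n = 3). In the second relapse H2-K1, Jak2 and Oasl1 are above every other library, B2m is low at 1741 to 3325, and Cd274 stands at 64.9 to 66.9 against 31.9 to 38.6 in the parental libraries and higher still in the late relapse.

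Nearly all genes of sterol and fatty acid synthesis were higher in the second relapse. Of 29 tested members 28 rose, 9 of them by at least 1 log2 unit, and 0 fell, with a median of 0.77. Sqle, the squalene epoxidase that commits carbon to sterols, went from 2058, 1929 and 1779 to 7300, 7446 and 8522 (4.04-fold, log2 difference 1.75, SE 0.06, limma adjusted p 1.46e-11). It lies on chromosome 15, and the median without members on chromosomes 15 and X was unchanged at 0.77. Cyp51 and Msmo1, which strip methyl groups from lanosterol and its products, rose 3.27-fold and 3.12-fold, the desaturase Fads2 4.29-fold, and Hmgcs1, which makes the precursor of mevalonate, 2.62-fold. In the 1st and late relapse Fads2 averaged 1466 and 1485, against 1261 in the second, and neither difference passed the test (limma adjusted p 0.238 and 0.184). In Chronic IFNG KP it averaged 841, and the difference from that group was not tested.

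The Hmgcs1 promoter is shown because a sterol regulatory element, the site of SREBP factors, lies in it. The motif TCACNCCAC was searched on both strands of the same RefSeq promoters, and 408 of 32851 held it (1.24%), among them 1 of the 18 tested sterol genes in the table. Capitals mark the match.
Hmgcs1 (chr13:119690169-119690267, plus strand): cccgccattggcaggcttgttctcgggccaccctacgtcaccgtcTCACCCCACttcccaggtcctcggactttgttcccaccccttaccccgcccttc

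Glycolysis and hypoxia genes were also mostly higher. Of 33 tested members 22 rose and 2 fell, with a median of 0.43, and under quantile normalisation 7 fell. Slc16a3, the exporter of lactate, was at 325.8, 280.8 and 289.5 in the parental libraries and at 8244, 8228 and 8057 in the second relapse, a 27.4-fold rise. The glucose importer Slc2a1 rose 2.51-fold, lactate dehydrogenase, Ldha, 1.74-fold, the aldolase Aldoc 4.29-fold, the oxidase Ero1l 2.36-fold and the vasodilator peptide Adm 3.31-fold. Nuclear genes of the respiratory chain gave 29 higher and 4 lower of 42, median 0.29, with smaller differences, and 8 lower under quantile normalisation. The 3 highest, Cox6c (2.32-fold), Ndufb9 (2.26-fold) and Cyc1 (2.22-fold), all lie on chromosome 15, and without members on chromosomes 15 and X the median was 0.27 and 2 members were lower. Mitochondrially encoded genes gave 1 higher and 5 lower of 15, median -0.09, and the sign of that median turned without Parental KP replicate 3 (0.02). Without that library or 2nd relapse KP replicate 1, 2 of these genes were higher.

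Redox defence genes under the factor NRF2 gave 16 higher and 7 lower of 35, with a median of 0.20. The malic enzyme Me1, which makes NADPH, rose 5.69-fold, from 906.7, 700.5 and 772.7 to 4164, 4760 and 4613. Glutathione reductase, Gsr, rose 3.78-fold, the cystine importer Slc7a11 7.81-fold, the glutathione transferase Gsta4 5.41-fold and the iron exporter Slc40a1 13.4-fold. Peroxiredoxin 1, Prdx1, rose 2.32-fold. The promoters of Me1 and Prdx1, which both rose, are shown because each holds a match to the antioxidant response element, the site of NRF2. Its motif TGACNNNGC was searched on both strands and is common, in 4071 of 32851 promoters (12.39%) and 9 of the 29 tested NRF2 genes in the table. Capitals mark the match.
Me1 (chr9:86695867-86695965, minus strand): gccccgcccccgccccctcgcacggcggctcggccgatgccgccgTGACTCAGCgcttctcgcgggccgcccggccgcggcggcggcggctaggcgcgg
Prdx1 (chr4:116685421-116685519, plus strand): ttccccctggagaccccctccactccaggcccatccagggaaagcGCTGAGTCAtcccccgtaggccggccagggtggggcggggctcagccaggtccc

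In the unfolded protein and integrated stress list 18 of 31 tested members rose and 3 fell, with a median of 0.20, and 6 fell under quantile normalisation. Herpud1, which clears misfolded proteins from the endoplasmic reticulum, rose 4.24-fold, asparagine synthetase, Asns, 3.75-fold, and the factor Atf4 2.44-fold, from 4396 ± 125 to 10720 ± 353. Immediate-early and heat shock genes gave 11 higher and 2 lower of 26, median 0.28 (4 lower under quantile normalisation), with the small chaperone gene Hspb1 up 12.8-fold (196 ± 33.7 to 2512 ± 471). Prostaglandin and retinoid genes gave 10 higher and 6 lower of 18, median 0.15. Besides Aldh1a3, the retinol carrier Rbp4 rose 4.68-fold, while Ptgs2, the inducible cyclooxygenase, fell 3.21-fold, from 5378, 5465 and 6305 to 1405, 1880 and 2057. S100 and annexin genes gave 14 higher and 2 lower of 19, median 0.80. Anxa13, an annexin of gut epithelium on chromosome 15, was at 24, 10.7 and 10.6 and then at 2186, 2328 and 2666, S100a14 rose 13.5-fold, and Anxa6 fell 8.09-fold.

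Cell-cycle genes were modestly higher. Mitotic genes gave 23 higher and 2 lower of 34, median 0.22, with the spindle motor Kif11 up 1.96-fold, the proliferation antigen Mki67 up 1.54-fold and the cytokinesis protein Anln down 1.61-fold. Only 1 mitotic gene was called lower without 2nd relapse KP replicate 2 or 3, without Parental KP replicate 1 or 2, or with no filter. Replication genes gave 17 higher and 3 lower of 33, median 0.16, and Rrm2, which limits nucleotide supply, led with a 3.72-fold rise, from 727.7, 804.7 and 599.0 to 2564, 2434 and 2920. Myc was at 2268, 1809 and 2175 and then at 2874, 2998 and 3052, a rise of 1.43-fold, and its target list gave 16 higher and 10 lower of 34, median 0.12 (0.06 without chromosomes 15 and X, and 6 lower with no filter). Imprinted growth genes gave 0 higher and 5 lower of 7, median -0.72. H19, a maternally expressed RNA, was at 784.6, 547.3 and 775.1 in the parental libraries and at 10.7, 11.9 and 9.3 in the second relapse, and Peg10 was at 133 ± 7.38 against 2.84 ± 0.801. Of DNA methylation and Polycomb genes 6 rose and 8 fell of 21, median -0.02, among them the deacetylase Hdac9, which fell from 1429 ± 163 to 12.5 ± 5.12. The 8 became 5 without 2nd relapse KP replicate 1 or 3, without Parental KP replicate 1 or 3, or with no filter.

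Many neighbouring genes on chromosome 15 were higher together in the second relapse. Tested genes were ordered along each chromosome in windows of 50, and the border between raised and level windows was chosen after the values were seen, so the segments below are a description. In the first 5 windows of chromosome 15 (chr15:3268547-79403569, 250 genes) 203 genes rose and 21 fell, and the median difference was 0.54 on the log2 scale, with a median ratio of normalised counts of 1.83. Measured library by library from the parental mean, the median of this segment was 0.56, 0.54 and 0.55 in the 2nd relapse libraries and between -0.09 and 0.03 in the other 12 KP libraries. Against the 1st and late relapse groups the segment's median was 0.60 and 0.57. The last 200 windowed genes of the chromosome (chr15:79417856-102324357) had a median of 0.00, with 74 higher and 65 lower, but were not even. The window next to the raised segment (chr15:79417856-82693148) had a median of 0.25, with 29 higher and 10 lower, and the 3 after it had medians of -0.02, -0.17 and 0.03. Lgals2, Anxa13, Apol9a, Apol9b, Sqle, Ndrg1, Cox6c, Ndufb9, Cyc1, Slc39a4, Bop1 and Myc lie in the raised segment, and its part in their values was not tested. Atf4 and Cbx7 lie in the window next to it, and Krt7, Krt8, Krt18 and Aqp5 in the last.

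Chromosome X was lower. Its 329 tested genes gave 36 higher and 225 lower, with a median of -0.32. In its first 2 windows (chrX:6399854-53021659, 100 genes) 4 rose and 87 fell, with a median of -0.49 and a median ratio of 0.538, and per library the median was -0.47, -0.49 and -0.52 in the second relapse. The late relapse libraries were at -0.16, -0.14 and -0.18 and the 1st relapse libraries at 0.05, 0.03 and 0.03. The later 200 genes had a median of -0.22 in the second relapse and of -0.20, -0.17 and -0.20 in the late relapse libraries. Xist, the RNA of the inactive X chromosome, chosen after its values were seen, was at 29022, 24714 and 31810 in the parental libraries and at 18140, 19157 and 17952 in the second relapse, a 1.55-fold fall. The whole of chromosome 15 had a median of 0.29, with 281 of 469 genes higher (59.9%) and 93 lower. Chromosome 19 had about the same median, 0.28, with 280 of 406 genes higher (69%) and 37 lower, spread over all of its 8 windows at 0.19 to 0.36. On chromosomes other than 15 and X the 200 window medians lay between -0.24 and 0.36, against -0.17 to 0.73 on chromosome 15 and -0.50 to -0.16 on X. Copy number was not measured in these data.

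**Figure D5:**
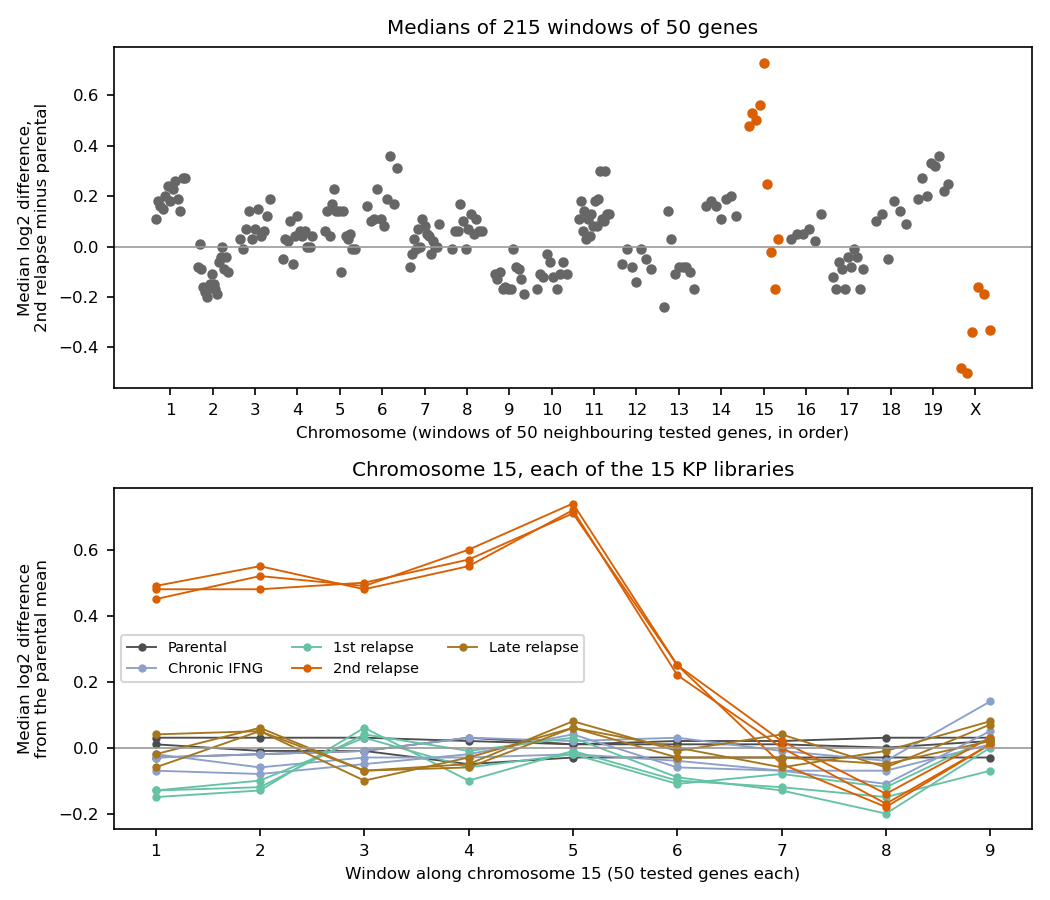
Top, median log2 difference (2nd relapse minus parental) in windows of 50 neighbouring tested genes, by chromosome, with chromosomes 15 and X in orange. Bottom, the median difference from the parental mean in the 9 windows of chromosome 15 for each of the 15 KP libraries; the 3 2nd relapse libraries stand at 0.45 to 0.74 in the first 5 windows and join the other libraries from the seventh.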

How the data were processed

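RNA from sorted live CD45-negative cells was sequenced as stranded total RNA, read in pairs, per the labels' protocols. Reads were processed with cutadapt 2.9, Salmon 1.8.0 and DESeq2 1.34.0 on GRCm38 (mm10), per the submitters' processing notes. The deposited values are variance-stabilised values on a log2-like scale, as their distribution shows, with a lowest value of 8.17 that stands for a count of 0. Inverting the transformation gave normalised counts. Between 75.4% and 80.5% of low values then fell within 0.15 of whole reads in the 6 libraries (30% by chance), which gave the depth.

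Genes were tested where the mean of at least 1 KP group lay 1 log2 unit above the lowest value (144.2 normalised counts), which kept 11193 of 36040 (31.1%, holding 99.0% of counts). limma 3.58.1 in R 4.3.3 was fitted with an intensity trend to the deposited values of all 15 KP libraries in 5 groups, with Benjamini-Hochberg adjustment over the 11193 genes within each of 3 comparisons, and genes with an adjusted p below 0.05 were called. An exact permutation test of 3 against 3 cannot go below 0.1. The method was tested on simulated data. No fold is given where a group's mean was below 20 normalised counts.

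The members and gene lists were chosen with earlier results of these data known. Named genes are the 15 highest and 15 lowest called genes whose groups did not overlap (at least 3 log2 units above the lowest value in a group, predicted genes left out), from each list up to 6 tested members that differed most in either direction, and a set of interferon, antigen presentation and tumour genes named whether called or not. Replicates 1 to 3 carry numbers in the labels that nothing ties to a shared animal or day. Alternatives covered the filter, normalisation, trend, samples fitted, array weights, replicate block, log scale, threshold and each library left out. Lists without genes of chromosomes 15 and X were added after seeing the data. Symbols and coordinates come from GENCODE on GRCm38, and 85 identifiers had no symbol. Results for some genes are not reported here.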

Additional observations from a re-analysis of the deposited data

Results flagged for a closer look

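Of 44 genes considered, 7 moved in opposite directions in the 2 tumour lines of the study: every 2nd relapse KP library lay on one side of the parental KP libraries, and every relapsed library of LLC1, a mouse Lewis lung carcinoma line, lay on the other side of its own parental libraries. The 2 tables were normalised separately and the difference between the lines was not tested. The share of such genes among all genes was not calculated. Non-overlap in KP was also part of the rule that named the highest and lowest genes, so the 7 are only a description. Log2 differences below are relapsed minus parental.

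The anchoring fibril collagen gene Col7a1 differed by 0.38 in LLC1 and by -2.83 in KP, with LLC1 libraries at 4445, 5265 and 4954 before and 7685, 6557 and 5451 after relapse. Olfml2b differed by 0.95 in LLC1 and by -2.81 in KP. The receptor Fgfr1 differed by 0.38 in LLC1, at 10345, 12058 and 12764 against 15289, 15238 and 15662, and by -3.75 in KP.

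The interferon receptor gene Ifngr2 differed by -0.19 in LLC1, at 816.8, 787.7 and 792.4 against 601.2, 715.4 and 630.6, and by 0.56 in KP.

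The lactate exporter Slc16a3 differed by -0.68 in LLC1, at 1323, 1250 and 926.3 against 386.7, 621.8 and 729.5, and by 3.51 in KP. The proliferin copies Prl2c2 and Prl2c3 differed by -1.27 and -1.62 in LLC1 and by 3.33 and 3.07 in KP.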

How the results depend on the processing

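Against parental KP, 4117 genes were higher, 3250 lower and 7367 either. A stricter filter (3 log2 units above the lowest value, fewer genes tested) gave 1515, 1000 and 2515, and requiring 1 log2 unit gave 476, 277 and 753. Against the 1st relapse the same settings gave 1693, 759 and 2452, and 243, 340 and 583. Against the late relapse they gave 1357, 831 and 2188, and 141, 201 and 342. Leaving out each library in turn gave 3856 to 3890 higher, 2921 to 3141 lower and 6800 to 6997 either against parental KP, 3493 to 3698, 2855 to 2996 and 6452 to 6573 against the 1st relapse, and 3006 to 3107, 2490 to 2684 and 5496 to 5765 against the late relapse. Quantile normalisation turned the balance of calls against parental KP (3375 higher, 3797 lower, 47.1% of calls higher against 55.9%), as did median centring (3604 and 3795, 48.7%), with an all-gene median of -0.02 against 0.03. With no filter the counts were 5055 and 4231.

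With the replicate number as a block, 4071 genes were higher, 3208 lower and 7279 either against parental KP (3798, 3092 and 6890 against the 1st relapse, 3285, 2765 and 6050 against the late relapse). Same-numbered libraries correlated at -0.059, -0.122 and -0.101, and differently numbered ones at -0.001 to 0.103. With 3 libraries per group these values cannot show whether the numbers stand for a shared animal or day. Of the 254 named genes tested Tap1 alone lost its call under the block.

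Over 3704 values of the 254 named genes, 3661 kept direction and call, 32 lost the call, 11 gained it and 0 turned sign, in 12 genes. Of 668 values of 42 list medians, 480 moved by less than the replicate spread, 184 moved by more and 4 turned sign: NF-kB (-0.00), alveolar and airway (0.76) and complement (0.18) under the stricter filter, which tests fewer genes, and mitochondrially encoded genes (0.02) without Parental KP replicate 3 (-0.10 to 0.02 over the libraries left out in turn), for which the cause was not tested. The filter at 144.2 normalised counts was a choice, and it left genes such as Cd274, Cxcl9 and Cxcl10 out of the main test.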
